A study of Mus musculus with 17 samples.

Results

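The widest peaks of histone H3 lysine 27 acetylation (H3K27ac) in the mouse hypothalamus were the intervals of at least 2500 bp in a bulk CUT&Tag peak list. They were chosen by their width alone and numbered 650 of 183678 peaks, or 0.354%. They covered 1.82 of the 126.687 Mb of sequence under all peaks, or 1.43%. The list came from 3 bulk samples of dissected hypothalamus, titled as biological replicates and made with the same Abcam antibody to H3K27ac. All 3 shared the tissue and the antibody, and the labels used here give no treatment, genotype, strain, sex or age. The series also holds 7 DNA and 7 RNA sub-libraries of Paired-Tag, which profiles histone marks and transcripts in single nuclei, and these were not analysed here. The 3 bulk samples share 1 list without a value per replicate, so no spread between samples, no depth and no test between groups can be given. Every share below is a description, and its Wilson interval, at 95% confidence, covers counting error only. In bulk nuclei, a mark carried by few cells and a weak mark in all cells cannot be told apart.

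H3K27ac is placed by the acetyltransferases CBP and p300 at promoters and enhancers that are in use. Most acetylated sites are short and sit on either side of a nucleosome-depleted centre, while at some genes the mark runs far into the transcribed region. Long acetylated stretches are known from genes of cell identity. The hypothalamus mixes many kinds of neurons with astrocytes, tanycytes, oligodendrocytes, microglia and vascular cells.

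Most wide peaks that held a promoter held one rich in the dinucleotide CpG. Below are the 250 bases before the RefSeq start of 6 genes whose whole 300-base promoter window lay in a wide peak, with every CpG in capitals, read 5′ to 3′ on the gene's strand (RefSeq, GRCm38.p6, the assembly called mm10). The first 4 are extremes among such windows, and the last pair belong to genes of the lists described further on. Foxo3, a transcription factor restrained by insulin signalling, has the window in the widest peak (chr10:42276696-42276945, minus strand). Rheb, the small GTPase that activates the mTOR kinase, has the highest CpG ratio (chr5:24842362-24842611, minus strand). Cbln3, a secreted cerebellin-family protein, has the lowest (chr14:55884257-55884506, minus strand). Septin11, a cytoskeletal GTP-binding protein, lies in the peak of highest fold enrichment that holds a whole window (chr5:93093166-93093415, plus strand). Jun, a subunit of the transcription factor AP-1, is from the immediate early genes (chr4:95052223-95052472, minus strand). Kcna2, a voltage-gated potassium channel, is from the ion channels (chr3:107101317-107101566, plus strand).
Foxo3: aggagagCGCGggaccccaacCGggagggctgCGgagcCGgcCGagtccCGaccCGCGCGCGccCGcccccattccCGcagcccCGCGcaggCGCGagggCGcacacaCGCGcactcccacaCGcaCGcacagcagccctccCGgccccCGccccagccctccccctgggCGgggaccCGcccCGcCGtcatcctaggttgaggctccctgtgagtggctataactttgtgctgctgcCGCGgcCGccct
Rheb: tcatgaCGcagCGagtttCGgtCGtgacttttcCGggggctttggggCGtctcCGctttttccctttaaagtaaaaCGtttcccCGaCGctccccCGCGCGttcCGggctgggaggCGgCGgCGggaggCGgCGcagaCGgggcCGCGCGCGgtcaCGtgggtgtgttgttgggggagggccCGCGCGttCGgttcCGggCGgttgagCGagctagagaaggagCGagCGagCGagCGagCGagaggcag
Cbln3: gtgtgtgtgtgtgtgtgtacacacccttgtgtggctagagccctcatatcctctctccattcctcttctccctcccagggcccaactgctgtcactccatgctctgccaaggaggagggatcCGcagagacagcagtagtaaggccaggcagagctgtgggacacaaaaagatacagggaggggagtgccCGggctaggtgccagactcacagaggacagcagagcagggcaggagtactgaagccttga
Septin11: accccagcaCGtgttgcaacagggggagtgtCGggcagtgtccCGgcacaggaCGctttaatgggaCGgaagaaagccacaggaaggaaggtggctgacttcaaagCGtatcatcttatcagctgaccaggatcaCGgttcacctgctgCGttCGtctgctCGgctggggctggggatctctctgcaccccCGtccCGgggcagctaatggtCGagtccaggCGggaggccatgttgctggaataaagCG
Jun: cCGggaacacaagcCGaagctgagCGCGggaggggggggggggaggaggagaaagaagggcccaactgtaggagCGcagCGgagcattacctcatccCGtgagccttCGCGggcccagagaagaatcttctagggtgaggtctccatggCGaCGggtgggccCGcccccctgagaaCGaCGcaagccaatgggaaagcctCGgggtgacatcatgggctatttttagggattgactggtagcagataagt
Kcna2: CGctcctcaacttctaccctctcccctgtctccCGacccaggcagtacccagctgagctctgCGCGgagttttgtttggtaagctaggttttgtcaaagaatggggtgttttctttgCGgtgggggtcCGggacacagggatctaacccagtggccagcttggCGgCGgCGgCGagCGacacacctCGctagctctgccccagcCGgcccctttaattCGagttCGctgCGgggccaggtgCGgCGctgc

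These 250 bases held 37 CpG in Rheb, 31 in Foxo3, 18 in Kcna2, 15 in Septin11, 15 in Jun and 2 in Cbln3. The CpG ratio of the 300-base window, observed over expected from its C and G content, was 1.30 in Rheb, 0.932 in Kcna2, 0.834 in Foxo3, 0.833 in Septin11, 0.594 in Jun and 0.0839 in Cbln3. The peak over the Cbln3 window is 2523 bp wide and also holds the start of Khnyn, on the opposite strand and 686 bp away, so it cannot be given to either gene alone.

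Wide peaks were the far tail of a smooth distribution and formed no separate class. Their widths ran from 2501 to 4216 bp with a median of 2714.5 bp, against a median of 557 bp over all peaks. Of the 650, 532 were below 3000 bp, 118 were at least that wide and 17 reached 3500 bp. At the threshold, the peaks just inside lay at Neurl1b (2501 bp, fold enrichment 4.33), Cacna1s (2501 bp, 3.18) and Klf12 (2502 bp, 6.93). Those just outside lay at Trpc7 (2499 bp, 2.97), Gpr139 (2499 bp, 10.4) and Nectin3 (2498 bp, 7.88).

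**Figure D1:**
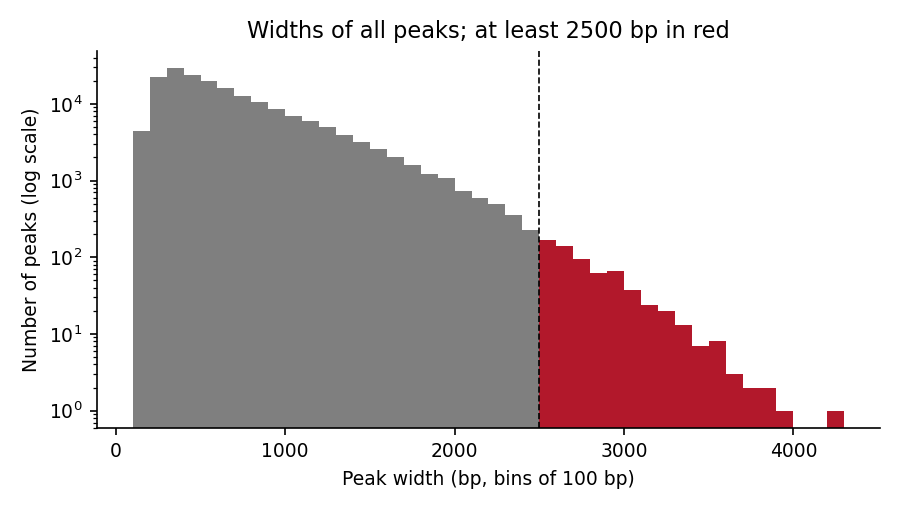
Number of peaks (log scale) against peak width in bins of 100 bp, with the 650 peaks of at least 2500 bp in red. The counts fall steadily across the threshold, with a single peak beyond 4000 bp.

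Width was not the same as height. The fold enrichment, a linear ratio that the authors' peak caller gives for each peak, had a median of 4.87 in wide peaks (range 2.16 to 10.7) against 3.18 over all peaks. It was highest at intermediate widths: the median was 2.67 under 300 bp, 5.46 from 1500 to under 2000 bp, 5.36 from 2000 to under 2500 bp and 4.87 in wide peaks. The highest single value fell from 27.97 at 500 to under 750 bp to 14.9 at 2000 to under 2500 bp and 10.7 in wide peaks. None of the 650 wide peaks was among the 650 peaks of highest fold, which began at 16.97 and had a median width of 985 bp. Across all 183678 peaks the Spearman correlation of width and fold was 0.503, and within the 650 wide peaks it was −0.155, both as descriptions over peaks of 1 list. The −log10 q, which grows with the number of reads, had a median of 99.4 in wide peaks and 13.1 over all.

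The wide peak of highest fold lay at Tfap4, a basic helix-loop-helix transcription factor (2737 bp, fold 10.7). Next came Septin11 (2610 bp, 10.4), the autophagy kinase Ulk1 (2608 bp, 10.05), the RNA polymerase II kinase Cdk13 (2550 bp, 10.00) and the histone H3 lysine 4 methyltransferase Kmt2c (2566 bp, 9.87). The proteasome shuttle Ubqln2 (9.83), the proton-gated channel Asic2 (9.82), Mprip (9.27), the receptor phosphatase Ptprd (9.20) and the noncoding host gene Mir22hg (9.17) completed the 10 highest. The 5 lowest lay at Nacad (2.16), Sipa1l2 (2.24), the autophagy protease Atg4a (2.30), the Rac exchange factor Prex1 (2.31) and Dot1l (2.46), which methylates lysine 79 of histone H3. Of these 5, the Nacad peak was at a gene end and the other 4 were inside their gene. In all, 48 wide peaks (7.38%) had a fold below the median of all peaks, and 28 (4.31%) had one over 8.

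The single widest peak spanned chr5:144255089-144259304 (4216 bp, fold 4.03) and held a start of Bri3, which encodes a small membrane protein of the brain. It was followed by Dnm1, the dynamin that pinches off synaptic vesicles (3926 bp, 4.18), and Foxo3 (chr10:42274770-42278601, 3832 bp, 5.32). Gal3st1, the sulfotransferase that makes the myelin lipid sulfatide, came next (3828 bp, 3.91). The fifth, of 3738 bp on chromosome 11, overlapped no gene, and the nearest protein-coding gene was Phb, 20643 bp away. Next were the zinc finger factor Hivep2 (3724 bp), the teneurin Tenm4 (3670 bp), the receptor phosphatase Ptprg (3662 bp), Jade2 (3621 bp) and the corepressor Zfp703 (3593 bp). The remaining 5 of the 15 widest lay over the noncoding Chn1os3, 2494 bp from Chn1 (3572 bp), and at the axon guidance ligand Slit2 (3565 bp), the inositol trisphosphate kinase Itpkb (3552 bp), the giant cadherin Fat4 (3546 bp) and the adhesion molecule Dscaml1 (3541 bp). Fold enrichment in these 15 ran from 2.48 at Dscaml1 to 6.55 at Slit2, so none was among the 10 wide peaks of highest fold.

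More wide peaks lay at the ends of genes than peaks at large did, although a wide interval reaches an end more easily by its size. Of the 650, 349 (53.7%, Wilson 49.8 to 57.5) reached to 1 kb or less from either end of a protein-coding gene, against 10.5% of all peaks. By the summit alone, which does not grow with the interval, the shares were 39.2% (255 peaks, Wilson 35.6 to 43.0) and 9.13%, and 35.9% (34.1 to 37.9) for the 2398 peaks of 2000 to under 2500 bp. A further 210 wide peaks (32.3%) lay inside a protein-coding gene away from both ends of its span, against 61.1% of all peaks. The span gives only the outer ends of a gene, and 36 of these 210 held a listed start within it. Another 42 (6.46%) overlapped genes of other kinds only, and 49 (7.54%) overlapped none, against 7.12% and 21.3% of all peaks. The 10 widest peaks away from the ends of a span lay at or near Bri3, Phb, Hivep2, Tenm4, Chn1, Slit2, Dscaml1, Tmem108, Prex1 and Sox10, and those at Bri3, Hivep2, Tenm4 and Slit2 held a start inside the span. The Tmem108 peak was 3500 bp wide with a fold of 3.36. Median fold was 5.41 in wide peaks at gene ends and 4.31 in those inside genes. Over all peaks these were 5.96 and 3.03, so the median of wide peaks was the lower at gene ends and the higher inside genes.

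The share of peaks that held a protein-coding start rose with every step in width, although a wider interval holds a start more easily by its size. It was 0.273% under 300 bp, 7.11% from 750 to under 1000 bp, 29.4% from 1500 to under 2000 bp, 35.5% from 2000 to under 2500 bp and 41.1% in wide peaks (258 of 627, Wilson 37.4 to 45). These shares leave out 1 chromosome without entries in the table of starts, which lists 21263 starts for 17492 of 21887 protein-coding genes, so they are lower limits. By the summit, which does not grow with the interval, wide peaks and those of 2000 to under 2500 bp were close. It was within 500 bp of a listed start in 28.9% (Wilson 25.5 to 32.5) and 27.7% (25.9 to 29.5), intervals that overlap, and in 6.09% of all peaks. The summit was more than 10 kb from every listed start in 50.9% of wide peaks and 81.7% of all. A start without an entry counts as distant here, so the last 2 shares are upper limits.

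**Figure D2:**
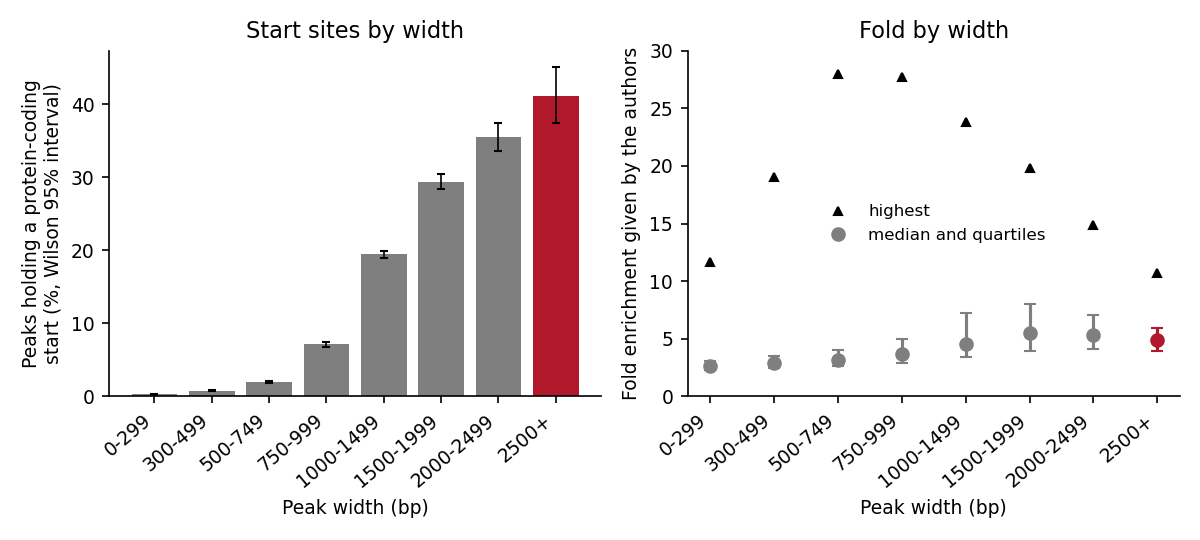
Left, percent of peaks that hold a protein-coding start by peak width, with Wilson 95% intervals. Right, median and quartiles (circles and bars) and highest value (triangles) of the authors' fold enrichment. The share with a start is highest in the widest class, at 41.1%, while the median fold is highest at 1500 to under 2000 bp. A wider interval holds a start more easily by its size.

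Wide peaks on a start reached mainly into the gene. In the 207 that held exactly 1 listed start, the peak extended a median of 756 bp before the start and 1989 bp after it, and the downstream side was longer in 169 (81.6%). The summit stayed near the start, with a median of 52 bp into the gene, and was within 500 bp of it in 139 (67.1%). In the 6400 narrower peaks of 1000 to under 2500 bp with 1 start, the medians were 506 bp before and 875 bp after, the downstream side was longer in 77.2%, and 90.5% had the summit within 500 bp. The extra width was thus larger on the downstream side, and summits of wide peaks were spread farther from the start.

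**Figure D3:**
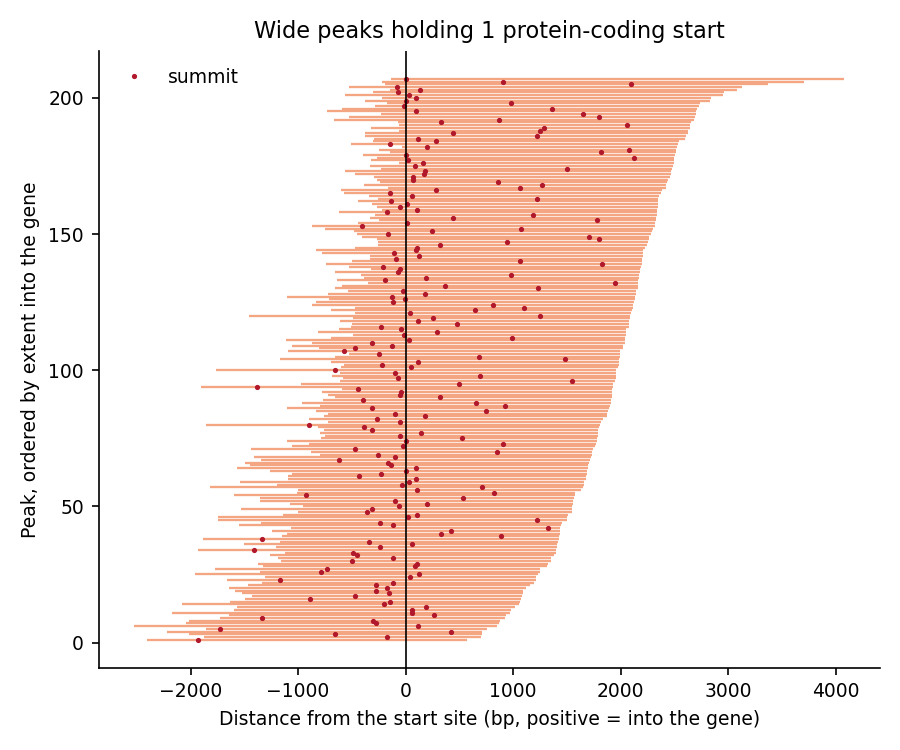
The 207 wide peaks with 1 protein-coding start, each drawn as a line from its upstream to its downstream edge in bp from the start, with the summit as a dot. Lines are longer to the right of the start in 169 of 207 peaks, and most dots lie close to it.

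In 14 wide peaks lay the starts of 2 genes, and in all 14 the starts were on both strands. The widest held Hirip3, which binds the histone chaperone HIRA, and Ino80e, a chromatin remodeler subunit (3229 bp, fold 5.21). The next held Peg3 and Usp29, imprinted neighbours whose starts are 164 bp apart (3177 bp, fold 5.15). Other pairs were Fam72a with Srgap2, Exoc8 with Sprtn, and the histone genes H2ac20 with H2ac21. The starts of the histone pair are 995 bp apart, at the outer ends of genes that face each other. Reads of such peaks cannot be divided between the 2 genes.

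Of the 4408 protein-coding genes no longer than the widest peak, 8 lay wholly inside a wide peak. These were Fndc10, Gm40415, the histone genes H2ac20, H2ac21 and H1f10, Inafm1, Gm10840 and the phosphoglycerate mutase Pgam2. Fold ran from 3.02 at Pgam2 to 7.27 at H1f10. At the other end of genes, 26 wide peaks (4.15%, against 2.32% of all) lay at a 3′ end with no listed start within 1 kb. A wider interval reaches a 3′ end more easily by its size. No share by summit was taken here, so these shares do not show an excess at 3′ ends. The widest lay at Adap1 (3161 bp), Ccdc28b (3029 bp), Thbs3 (2990 bp) and Kcnh2 (2985 bp).

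The promoters in wide peaks were CpG-rich, like those in narrower peaks. A promoter window (250 bases before to 50 after a start) lay wholly in a wide peak in 293 cases, from 249 genes. Their median CpG ratio was 0.754 and their median GC content 66.7%, and 72.4% had a ratio of at least 0.6. The 10800 windows in narrower peaks had 0.784, 63% and 75.6%, while the 7397 windows that met no peak had 0.185, 46.3% and 6.69%. The contrast was between marked and unmarked promoters, and much less between wide and narrow.

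**Figure D4:**
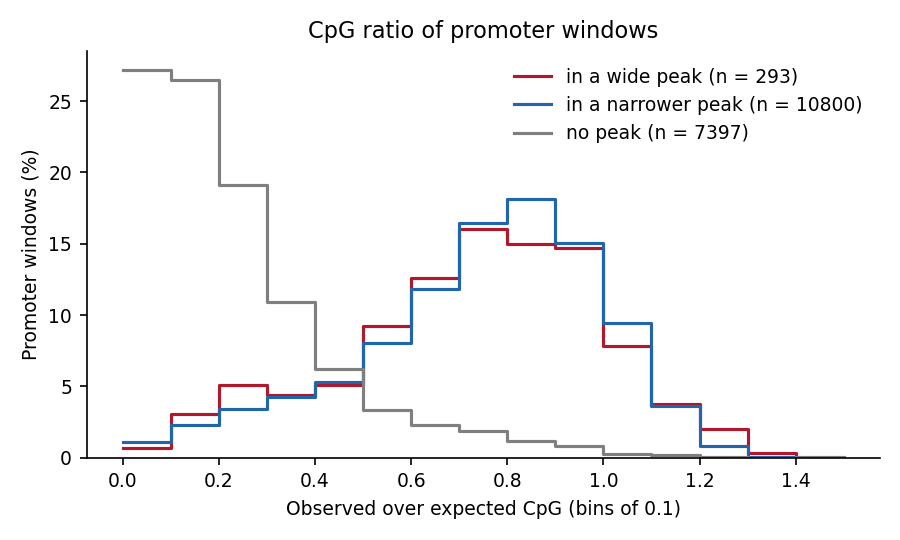
Distribution of the CpG ratio (bins of 0.1, ratios over 1.4 in the last) over promoter windows in wide peaks, in narrower peaks and in no peak, as percent of each set. The first 2 curves nearly coincide, with medians of 0.754 and 0.784, and the unmarked windows peak near 0.

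Promoters in wide peaks held the ETS motif less often than those in narrower peaks. The motif, searched as CCGGAAG on both strands, is the core bound by ETS factors such as GABPA, which often sits at promoters of genes used in all cells. It occurred in 5.12% of windows in wide peaks (15 of 293, Wilson 3.13 to 8.27) and 11.6% of all windows. By peak width the share rose and then fell: it was 14.1% at 300 to under 750 bp, 22.8% at 750 to under 1000 bp, 21.6% at 1000 to under 1500 bp, 14.6% at 1500 to under 2000 bp and 9.07% (7.42 to 11.04) at 2000 to under 2500 bp, where the interval overlaps that of wide peaks. With 1 window for each gene, it was 8.15% at 2000 to under 2500 bp and 5.62% in wide peaks. Median GC content over the same classes was 58%, 60%, 62.7%, 65.7%, 66% and 66.7%, and the median CpG ratio was 0.552, 0.736, 0.798, 0.815, 0.779 and 0.754. The motif holds a CpG, and the part of base composition in its share was not tested.

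Examples of this motif in wide peaks are shown for 3 genes, with 11 bases on either side and the motif, or its reverse complement CTTCCGG, in capitals. They lie before the starts of Hirip3 (chr7:126861845-126861873, plus strand), Cdk13 (chr13:17805144-17805172, minus strand) and Atxn2, the gene of an RNA-binding ataxin (chr5:121711507-121711535, plus strand). The motif's first base is at −116 in Hirip3, −64 in Cdk13 and −91 in Atxn2, counted from the start.
Hirip3: tcacacctccaCTTCCGGagactttgcaa
Cdk13: gcgcccccgctCCGGAAGctgcgcgcagt
Atxn2: gacccttccgaCTTCCGGtaaagagtccc

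The core CGCATGCG of NRF1, a factor of nuclear genes for mitochondria, was in 0.341% of windows in wide peaks, which is 1 of 293 (Wilson 0.0603 to 1.91). It was in 1.86% (1.18 to 2.91, which overlaps) at 2000 to under 2500 bp, 4.99% at 1000 to under 1500 bp 0.392% of windows in no peak and 2.52% of all windows. The other motifs are given for wide and then for narrower peaks. The GC box GGGCGG, bound by SP and KLF factors, was in 74.7% and 69.2% (46.2% of all windows). The CCAAT box CCAAT was in 36.2% and 37.1% (38.2% of all), the E-box CAGGTG in 18.4% and 18% (19.7% of all), and the TATA box TATAAA in 5.46% and 5.05% (12.6% of all). Rarer ones were the AP-1 site TGAGTCA or TGACTCA in 1.37% and 3.29% (4.66% of all), the cyclic AMP element TGACGTCA in 1.71% and 3.26% (2.23% of all) and TGACGCAA in 0.341% and 0.972% (0.644% of all). The SOX site AACAAAG was in 5.46% and 3.12% (5.01% of all) and the octamer ATTTGCAT in 1.71% and 1.19% (1.66% of all). All were searched on both strands, and a match of letters is not a bound site.

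Wide peaks overlapped 583 of 21887 protein-coding genes (2.66%). A listed start of 270 of the 17492 genes that have one (1.54%) and some part of 140 of 12727 lncRNA genes (1.1%) lay in a wide peak. Of the 650 peaks, 502 overlapped 1 protein-coding gene, 51 overlapped more and 97 overlapped none. Long genes were met more often: 1.55% of those under 5 kb, 1.92% of those of 20 to 50 kb, 5.84% of those of 100 to 200 kb and 11% of those of 200 kb or more lay under a wide peak. By start, where a gene counts if any of its listed starts lay in a wide peak, the shares were 1.4%, 1.1%, 3.03% and 4.70% for the same lengths. A gene with several listed starts is a larger target, and the number of starts by gene length was not examined. Median length was 47986 bp for genes under a wide peak and 17169 bp for all.

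The lists of genes below are read against 2.66%, and against the length of their members where these are long. For all genes of 100 to 200 kb the share was 5.84%, and for those of 200 kb or more 11%. The 2.66% also counts genes without a peak, as 16270 of the 21887 protein-coding genes had a peak of any width. Every member of the synaptic adhesion, ion channel, cytoskeleton, signalling and chromatin lists had one. Part of their distance from 2.66% can thus come from length and from having a peak. Synaptic adhesion and scaffold genes had the highest share, with 6 of 27 under a wide peak (22.2%; median length 150731 bp). They were the latrophilin Adgrl2 (3311 bp, fold 5.58), the postsynaptic scaffolds Shank3 (3029 bp, 4.25), Shank1 (2763 bp, 4.67) and Dlg2 (2577 bp, 7.13), and the receptor phosphatases Ptprd (2796 bp, 9.20) and Ptprs (2567 bp, 5.80). The start itself was in a wide peak in 3 of the 19 with a listed start, namely Shank3, Dlg2 and Ptprs. The widest peaks of the other latrophilins were narrower, 2002 bp at Adgrl1 and 2258 bp at Adgrl3. In the vesicle and release machinery 1 of 25 genes was under a wide peak, the active zone gene Rims2 (2653 bp, 6.91), while Bsn reached 1702 bp and Cadps 1847 bp.

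Among ion channels, 9 of 42 genes were under a wide peak (21.4%; median length 173066 bp). The potassium channels Kcna2 (2991 bp, fold 4.41) and Kcnh2 (2985 bp, 3.17) had the widest. The L-type calcium channel Cacna1c followed (2840 bp, 3.56), then Kcnk3 (2725 bp), the NMDA receptor subunits Grin2a (2711 bp) and Grin2b (2548 bp), Cacna1b (2593 bp) and Kcnd3 (2537 bp). Cacna1a reached 1830 bp and Cacna1d 2289 bp. Of 25 channel genes with a listed start, 2 had it in a wide peak. Over all 94 genes with potassium channel symbols, 10 were under a wide peak (10.6%).

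Cytoskeleton and axonal transport genes had 8 of 40 under a wide peak (20%; median length 44691.5 bp). The widest lay at the microtubule protein Map1b (3420 bp, fold 3.22), the beta-tubulin Tubb2b (3063 bp, 5.64), the kinase C substrate Marcks (3011 bp, 4.93) and the kinesin Kif5a (2973 bp, 2.80). Map7d1, Actg1, Dpysl3 and Crmp1 completed the 8. The start was in a wide peak in 2 of the 25 with a listed start. The widest peak of Actb, the other cytoplasmic actin gene, was 1876 bp, and that of Ank2 2111 bp. Among signalling genes 8 of 49 were under a wide peak (16.3%, median length 66302 bp), and 2 of the 34 with a listed start had it inside. The widest lay at both inhibitors of the calcium/calmodulin kinase CaMKII, Camk2n1 (3206 bp, 6.21) and Camk2n2 (3201 bp, 5.29). The kinase subunit Camk2b itself had 2 (3136 bp, 4.81, and 2718 bp, 4.70). Others were Prkce (2987 bp, 5.19), Ppp2r2c, Rasgrf1 and Prkcb, while Akt1 reached 1972 bp. The Camk2n2 peak also overlaps the readthrough gene Eef1akmt4-ece2.

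Chromatin regulators had 10 of 58 under a wide peak (17.2%; median length 70677 bp), and 6 of the 42 with a listed start had it inside (14.3%, against 1.54% of all). They included the remodeler ATPase Smarca4 (3432 bp, fold 3.49) and its partners Arid1b (2858 bp, 5.89) and Arid1a (2831 bp). The methyltransferase family gave Kmt2e (3033 bp, 5.75), Kmt2a (2997 bp, 7.57) and Kmt2c (2566 bp, 9.87). The acetyl-lysine reader Brd2 (2835 bp), the DNA methyltransferase Dnmt3a (2747 bp), the acetyltransferase Kat6b (2534 bp) and Auts2 (2502 bp) were the rest. The widest peak of Bmi1 was 1735 bp and that of Brd3 1491 bp. RNA-binding and splicing regulators had 0 of 51 (median length 31257 bp), where a share of 2.66% is about 1 gene. With peaks of at least 2000 bp they had 10 of 51 and chromatin regulators 24 of 58, both above the 10.9% of all protein-coding genes. The splicing list's widest peak was 2496 bp at Hnrnpa2b1, just under the threshold, and the median of their widest peaks was 1657 bp against 1882.5 bp in chromatin regulators and 1164 bp over all protein-coding genes.

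Transcription factors broadly used in the nervous system had 6 of 50 under a wide peak (12%, median length 93320.5 bp). They included Zeb1 (2893 bp, fold 5.68), the POU factor Pou3f1 (2769 bp, 4.31), Zic2 (2692 bp, 6.46), the progenitor factor Sox2 (2644 bp, 5.23) and Sox11 (2543 bp). Bcl11a reached 1593 bp and Bcl11b 1315 bp. Of the 36 genes of this list with a listed start, 2 had it in a wide peak. Factors of hypothalamic development had 2 of 41, among them Prox1 (2541 bp, 3.84). In this list 40 of 41 genes had a peak of some width. The Fox family had 4 of 44, among them Foxo3, Foxn3 (2816 bp, 3.87) and Foxo1 (2737 bp, 5.20). Genes named Zfp, mostly zinc finger genes, had 3 of 397 (0.756%).

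Pan-neuronal genes had 4 of 25 under a wide peak (16%, median length 60408 bp), and 2 of the 16 with a listed start had it inside. The 4 were the RNA-binding Celf4 with 2 peaks (3192 bp, fold 3.53, and 2541 bp, 3.46), the microtubule protein Dcx (2717 bp, 4.62), the enolase Eno2 (2679 bp, 6.94) and the adhesion molecule Ncam1 (2605 bp, 5.86). The Eno2 peak also overlaps Lrrc23. Celf5 reached 1746 bp and Elavl2 1613 bp. Genes of hypothalamic neuropeptides had 0 of 38, and a share of 2.66% of 38 genes is about 1 gene. Of these, 31 had a peak, the widest was 2424 bp at Adcyap1, the gene of PACAP, and the median of the widest peaks was 1059 bp. Peptide genes are short (median length 7563.5 bp), and 2 of the 38 were under a peak of at least 2000 bp, against 10.9% of all protein-coding genes.

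Astrocyte genes were the glial list with the most under a wide peak, 2 of 30 (6.67%). They were the membrane protein Mlc1 (2871 bp, fold 5.97) and the sodium pump subunit Atp1b2 (2677 bp, 5.48). The median widest peak of astrocyte genes was 1907 bp, with Aldh1l1 at 2315 bp and Agt at 1221 bp. Tanycyte and ependymal genes had 1 of 22, Sox2, which is in the list of neural factors too. None was found among 35 oligodendrocyte genes (widest 2435 bp at Cryab), 16 oligodendrocyte precursor genes (2258 bp at Nkx2-2) or 26 microglia genes. The same held for 28 endothelial genes (1966 bp at Pecam1), 20 mural and fibroblast genes (2257 bp at Foxd1) and 22 choroid plexus and pituitary genes (1829 bp at Clic6). Genes of other organs had 0 of 26, and 8 of the 26 had any peak. A share of 2.66% of 35 genes is under 1 gene, so a count of 0 does not set any of these lists below the background. At 2000 bp, where all protein-coding genes stood at 10.9%, astrocyte genes had 13 of 30 and oligodendrocyte genes 7 of 35. Precursor genes had 2 of 16, mural and fibroblast genes 2 of 20 and tanycyte and ependymal genes 2 of 22. Microglia genes had 1 of 26, endothelial genes 0 of 28 and choroid plexus and pituitary genes 0 of 22.

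**Figure D5:**
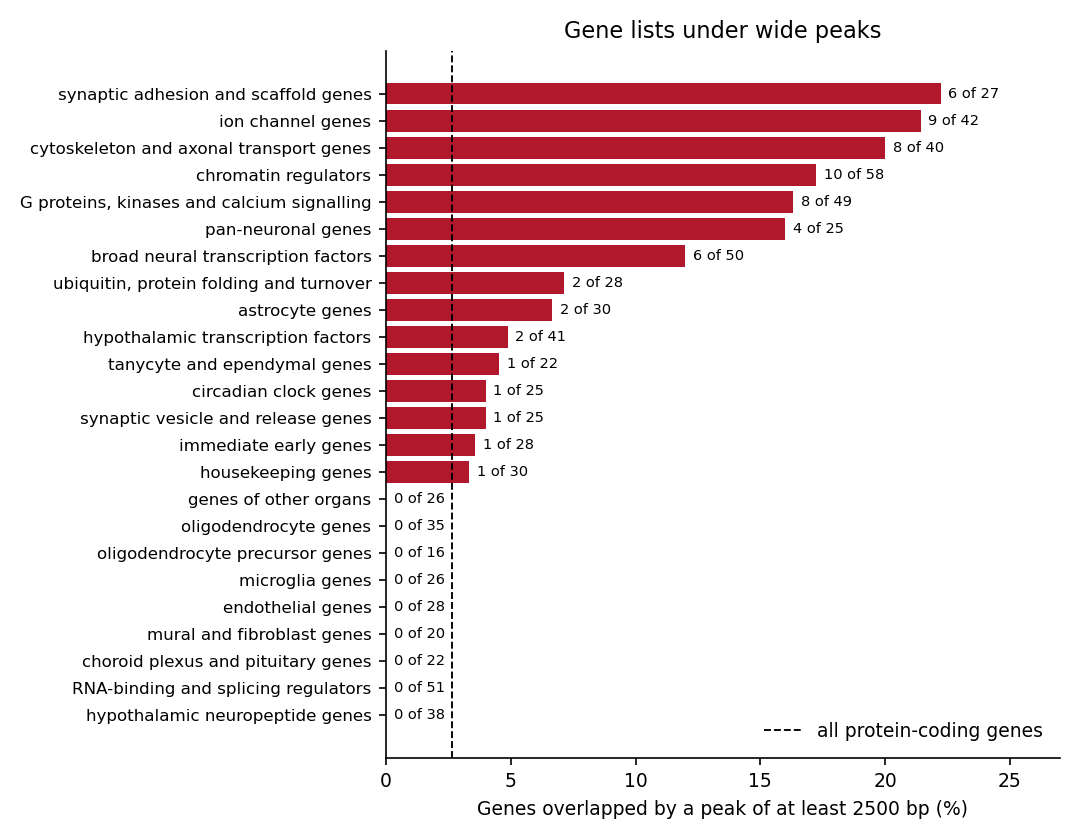
Percent of genes in each list that a peak of at least 2500 bp overlaps, with the count beside each bar and the 2.66% of all protein-coding genes as a dashed line. The line is not matched to the lists by gene length or by having a peak. Synaptic scaffold, ion channel, cytoskeleton, chromatin and signalling genes stand at 16.3% to 22.2%, and 9 lists stand at 0. The lists were chosen with earlier results of these data known, so the shares are a description only.

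Lists of broad or transient use stood near or above the background of 2.66%, on 1 or 2 genes each. Housekeeping genes had 1 of 30 (3.33%), the glycolytic enzyme Aldoa (2937 bp, fold 6.89), and Atp5b reached 1512 bp. Immediate early genes had Jun alone, 1 of 28 or 3.57% (3130 bp, fold 5.65), with Arc at 1871 bp and Atf3 at 1670 bp. Clock genes had the repressor Bhlhe40, 1 of 25 or 4% (2651 bp, 6.07), with Arntl at 2253 bp and Arntl2 at 1305 bp. Protein folding and turnover had Hsp90ab1 (2524 bp) and Usp9x (2507 bp), 2 of 28 or 7.14%, with Cct3 at 1366 bp and Cul3 at 1783 bp. No olfactory receptor (0 of 1110), vomeronasal receptor (0 of 355), keratin (0 of 53) or Hox gene (0 of 39) was under a wide peak. A peak of any width lay at 17 olfactory receptors, 3 vomeronasal receptors, 28 keratins and 2 Hox genes. Where most members had no peak, the count of 0 is not a result about width.

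Repeated wide peaks in 1 gene were uncommon: 21 of the 583 genes were overlapped by more than 1. Camta1, a calcium-responsive transcription activator of 802246 bp, had 3, of 3339, 3063 and 2677 bp (fold 4.53, 4.03 and 4.19), all inside the gene, covering 9079 bp. The next by covered length had 2 each: Itpkb (6457 bp), Dscaml1 (6377 bp), Camk2b (5854 bp), Celf4 (5733 bp), Soga1 (5399 bp), Asic2 (5304 bp) and the amino acid transporter Slc43a2 (5214 bp). They were followed by Atxn2 (5126 bp), the delta-catenin Ctnnd2 (5097 bp), Abr (5096 bp), Adap1 (5023 bp), the nuclear receptor coactivator Ncoa2 (4733 bp), Plppr3 (4630 bp) and the cadherin Cdh4 (4585 bp). Among the 21, gene length ran from 8246 bp at Nacad to 1088234 bp at Asic2.

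Wide peaks off protein-coding genes had folds close to those inside genes, with medians of 4.60 over other gene kinds and 4.40 in intergenic sequence. After the 2 already named (near Phb, and over Chn1os3), the widest lay over the noncoding Gm10863, 27883 bp from Sox10, the master regulator of oligodendrocytes (3438 bp, fold 4.22). Others were 50662 bp from Cdc5l (3352 bp), 17871 bp from Epc2 (3295 bp, 5.16), 3938 bp from Dynlt3 (3203 bp), over Gm31775 (3176 bp), over Mx2 (3169 bp, 5.16), 4602 bp from the hormone-responsive factor Klf9 (3160 bp, 4.33) and over LOC115489511 (3060 bp, 2.73). The nearest gene is given by distance alone, and no link to it was measured. Fewer wide peaks had a close neighbour: another peak lay within 1 kb of 113 (17.4%, Wilson 14.7 to 20.5), against 40.3% of all peaks. The median number of peaks within 10 kb was 3 for both. The gap runs from edge to edge, so it depends on how signal was joined into 1 peak, which also sets width. The share at 1 kb therefore does not show that these places are isolated.

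Among microRNA genes, 2 of the 1005 hairpins that were counted on the chromosomes of the RefSeq table lay under a wide peak. The wide peak at Nrp1 (2617 bp, fold 5.47) also overlaps the RefSeq gene Mir1903, which is outside this count of 2. The mature sequences of the 2 are given with the seed, bases 2 to 8, in capitals. The seed sets which messages a microRNA pairs with.
mmu-miR-8096: gGGCACGGuagcugaagagu
mmu-miR-2139: aGCUGCGCugcuccugguaacugc

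The first (chr1:85751983-85752002) lay in a peak of 2614 bp with fold 7.88 and no protein-coding gene. The second (chr4:139967531-139967554) lay in a peak of 2531 bp with fold 3.66 over Klhdc7a. Their seeds differ. The long noncoding list had 2 of 32 genes under a wide peak, against 1.1% of lncRNA genes: Sox2ot, whose peak of 2644 bp is the one over Sox2, and Mir9-3hg (2523 bp).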

How the data were processed

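One deposited peak list of 3 bulk CUT&Tag samples was used, grouped by their titles. Build mm10 and, without roles, cutadapt 4.5, BWA 0.7.17, UMI-tools 1.1.4, STAR 2.7.10a and MACS2 (no version) stand in the submitters' processing notes. Sources used here do not give the caller's settings or how the replicates were joined, and both can set peak widths. The score deposited by the authors, capped at 1000, stood at the cap in 50.9% of wide peaks and 8.15% of all peaks. The fold ratio and the −log10 q (of a q-value) deposited by the authors are values of each peak. They were used only to describe and rank.

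Genes, starts and sequences came from RefSeq (GRCm38.p6), matched by symbol. Of 794 entries in 25 lists, 2 did not match. The table of starts lacks 1 chromosome. Overlaps of at least 1 bp were counted in Python 3.11.15 with pandas 2.3.3 and numpy 2.4.6 and tested on simulated intervals. Members and lists were chosen with earlier results of these data known. Genes named are the 15 widest peaks, the 10 highest and 5 lowest by fold, 3 on either side of the threshold, the 15 genes with several wide peaks and most covered bases, the 10 widest off gene ends, and in each list the 4 under the widest peaks and 2 without one. Some genes under this rule are not reported here. Others, including further peaks off genes, the rest of short lists, motif carriers and shared starts, were chosen after their values were seen. Width by other thresholds, windows, gaps and summits were tried as alternatives.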

Additional observations from a re-analysis of the deposited data

How the results depend on the processing

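No paired analysis was possible because the list holds no value per replicate, and for the same reason no replicate could be left out. Depth is unknown, and no change of threshold can show how widths vary between samples. With a width of at least 2000 bp there were 3048 peaks over 2379 genes, 46.1% were at a gene end and 36.7% held a start. With at least 3000 bp there were 118 peaks over 113 genes, 89.0% overlapped a protein-coding gene (70.4% of all peaks) and 50.0% held a start. Both start shares were added after seeing the data. The summit alone was at a gene end in 39.2% (9.13% of all peaks) and inside a protein-coding gene in 68.6%. The share of summits inside a gene was nearly the same over all peaks, 68.4%. A window of 2500 bp put 57.8% at an end. Another peak lay within 500 bp of 11.4% and within 2500 bp of 24.9%. The lists held 61 genes under a wide peak, 212 at 2000 bp and 12 at 3000 bp. Of 24 list counts, 22 moved over 1.5 times at 2000 bp, and 18 lists had no gene at 3000 bp, ion channels among them (9 at 2500 bp). At 2000 bp all protein-coding genes stood at 10.9%, and 2 of the 9 lists with no gene under a wide peak still had none. Of 26 such values, 11 stayed within the interval or within 1.5 times. Median fold and CpG ratio were among these.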

Other observations

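The X chromosome had few peaks, and a larger part of them was wide. It carried 2485 peaks, of which 18 were wide (0.724%, Wilson 0.459 to 1.14), against 0.217% on chromosome 16 to 0.507% on chromosome 17 among the autosomes, and its interval overlaps that of chromosome 17 (0.370 to 0.695). Per Mb it had the fewest wide peaks of the autosomes and X, 0.105, against 0.418 on chromosome 11. Its wide peaks overlap, among others chosen after their values were seen, Dcx, the protocadherin Pcdh19, Nexmif, the deubiquitinase Usp9x, Ubqln2 and the channel Trpc5. Chromosome Y had 6 peaks and none was wide. Sex and the number of animals are not given in the labels used here, and their part in these counts was not tested.

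A pair of positions outside the naming rule were chosen after their values were seen. A wide peak of 2974 bp (fold 4.56) over the pseudogene Adgrd2-ps lies 2147 bp from Nr5a1, the gene of SF-1, which marks the ventromedial hypothalamus. A wide peak of 3006 bp (fold 3.4) without a gene lies 33284 bp from the proneural factor Neurog1.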
